A study of Mus musculus with 18 samples.

Results

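Streptozotocin (STZ), a toxin taken up by insulin-producing beta cells of the pancreas, was compared with no STZ in mouse liver over 12 of the 18 RNA-seq libraries of the series, with alginate oligosaccharide (AOS) as the other factor. The 6 STZ-treated libraries were those of the groups STZ and STZ+AOS, the 6 libraries without STZ were those of Con and AOS, and each group held 3 libraries. The effect reported for a gene was the mean of STZ minus Con and of STZ+AOS minus AOS, and it was estimated for the 10700 of 19057 genes listed at 1 RPKM (a read count normalised to gene length and library size) or more in 3 or more of the 12 libraries. Changes are differences of log2(RPKM + 1), STZ-treated minus not, which understate the change of low genes, and are given with their SE where one follows ±. All mice were ICR, an outbred stock, aged 10 weeks. Con mice were labelled as controls, AOS mice had received AOS at 10 mg/kg, STZ mice had received STZ, and STZ+AOS mice had received both, with AOS again at 10 mg/kg. The study's methods describe male mice and a single STZ injection, whereas the route and length of AOS dosing in these groups are not given in the sources used here. The remaining 6 libraries came from STZ mice given microbiota transplants and entered no comparison. Nothing in the labels ties a library to an animal, so p-values measure the spread between libraries, which may be technical.

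Insulin restrains glucose output by the liver and drives the synthesis of fatty acids there, and the genes it represses and induces are therefore a common readout of insulin lack. Rodent liver also carries a large programme of sex-biased genes, set by the pattern of growth hormone secretion, in which males make major urinary proteins (Mups) and several steroid-metabolising enzymes that females make little of, and the reverse. Fatty acids reaching the liver activate the nuclear receptor PPAR alpha, which induces enzymes of fatty acid oxidation.

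The libraries were hepatic by their markers, but several stood apart from the others of their group. Summed RPKM of 11 hepatocyte markers was 70376 to 94291 without STZ and 63309 to 84490 with STZ, and the Y-linked genes Ddx3y, Eif2s3y, Kdm5d and Uty were expressed in all 12 libraries, which fits male mice. On the leading component of variation, which held 67.9% of the variance, the library STZ 3 lay at 0.905 while the other STZ-treated libraries lay at 32.7 to 47.3 and those without STZ at -41.6 to -26.1. The library STZ+AOS 3 held RNA of exocrine pancreas genes, among them Ctrb1 at 36.5 RPKM against 0.49 or less elsewhere and Cel at 2.44 RPKM against 0.04 or less. Con 3 lay between Con 1 and Con 2 for 557 of the 589 Con genes above 5 RPKM in all 3 libraries that differed by over 0.5 on the log2 scale (94.6%, against 1.53% and 3.56% for Con 1 and Con 2), and AOS 3 lay between AOS 1 and AOS 2 for 320 of 361 such genes (88.6%). The corresponding shares for STZ 3 and STZ+AOS 3 were 15.1% and 16.6%. Tests below treat Con 3 and AOS 3 as separate samples, and calls without them are given for all genes and for the lists whose counts moved by over 1.5 times. Hbb-bt, an adult beta-globin gene, was at 0, 27.9 and 11.1 RPKM in Con 1, Con 2 and Con 3 and at 0, 19.4 and 6.62 in AOS 1, AOS 2 and AOS 3. Read depth is not in the files, but the steps between the lowest values of 97 rarely detected genes placed the 12 libraries at 0.946 to 1.08 times a common depth.

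Both the number of genes called for STZ and their direction depended on how the libraries were scaled, with 5516 calls as deposited and 3748 after median-ratio scaling. With RPKM as deposited, 5516 of 10700 genes (51.6%) passed an adjusted p of 0.05 in limma for the pooled effect, and are called here, 4685 higher (43.8%) and 831 lower (7.77%) in the STZ-treated libraries, and the median change over all genes was 0.21 on the log2(RPKM + 1) scale. After median-ratio scaling, which sets the typical gene to no change (median 0.0017), 1867 genes (17.4%) were called higher and 1881 (17.6%) lower, so that the share of calls that were higher went from 84.9% to 49.8%. No gene was called in opposite directions by the scalings, and 1867 higher and 831 lower genes were called under both. The scaling divided the STZ-treated libraries by 1.017 to 1.122 and the others by 0.843 to 0.970, which moved changes downward throughout. This overlap therefore followed largely from the scaling and is not separate support. A change of 2-fold or more accompanied 659 of the calls, 458 higher and 201 lower, and 467 genes (4.36%) passed the study's own limits of an adjusted p of 0.001 and 2-fold. The 6 STZ-treated and 6 other libraries did not overlap in 2481 genes that were higher (23.2%) and 339 that were lower (3.17%). Con 3 and AOS 3, which mostly lay between the others of their groups, were counted here as separate libraries. Without Con 3 and AOS 3, 3696 genes were called (3166 higher, 530 lower) and 107 passed the stricter limits, while 71 of the 74 called genes among the 87 chosen for naming stayed called and Srebf1, Ddit4 and H2-T24 did not. In the lists described below, 30 male-biased genes were then lower, and 23 female-biased, 14 gluconeogenic, 28 amino acid and 16 p53 target genes were higher. Without STZ 3 and STZ+AOS 3 the corresponding counts were 6277 and 662.

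The Mup genes moved with that scaling. Their summed RPKM was 129700 to 289269 in the libraries without STZ, where they made up 18.1% to 35.9% of all RPKM, and 173 to 131547 in the STZ-treated ones (exact stratified permutation test over libraries, two-sided p = 0.005, the smallest that 400 arrangements can give). STZ 3 supplied the highest of the treated sums and STZ+AOS 3 the next, 28140, while the other 4 lay between 173 and 840. All other genes together summed to 517668 to 588205 RPKM without STZ and 553113 to 654387 with it (exact permutation p = 0.02), and the arms overlapped. Both permutation tests counted Con 3 and AOS 3 as separate libraries and were not repeated without them. When RPKM were rescaled to equal sums over genes other than Mups, 2670 genes were called higher and 1261 lower with a median change of 0.09. The part of Mup loss in the smaller changes below was not tested otherwise, so the counts of list members are given under both scalings. All such counts are to be read beside the shares of all genes given above. Most changes of single genes are given with RPKM as deposited only, and the small ones depend on that choice. Pcna, for example, stood at 0.68 as deposited and 0.43 after median-ratio scaling, and Srebf1 at -0.63 and -0.88.

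**Figure D1:**
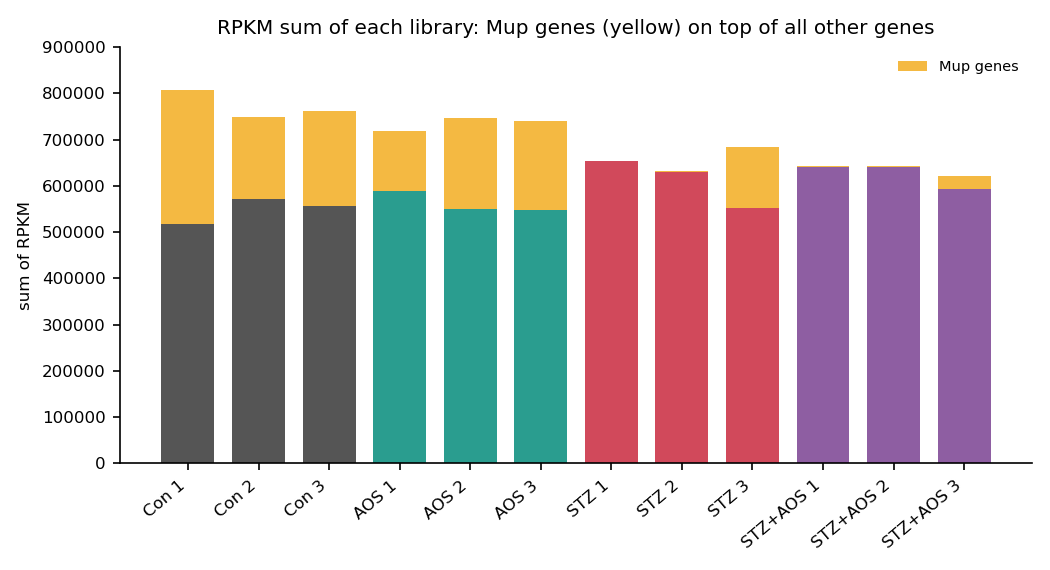
Sum of RPKM (vertical axis) in each of the 12 libraries, 1 bar per library coloured by group, with the Mup genes drawn in yellow above all other genes. Mup genes fill 129700 to 289269 RPKM of the 6 libraries without STZ, 131547 of STZ 3 and 28140 of STZ+AOS 3, and are barely visible in the other 4 STZ-treated bars.

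Mice without and with AOS gave the STZ effect on separate libraries, and the changes were alike in direction. STZ minus Con alone called 2683 genes (2316 higher, 367 lower) and STZ+AOS minus AOS alone called 2506 (2022 higher, 484 lower). Of these, 1527 were called with the same sign in both, which is 56.9% of the former and 60.9% of the latter. Of the genes called in mice without AOS, 98.3% had the same sign in mice with AOS, and 98.96% in the reverse direction. Over all tested genes 83.9% had the same sign in both (78.1% after median-ratio scaling), and the changes correlated across genes with Pearson's r = 0.88 and Spearman's rho = 0.76, a description over genes, which are not independent. Pooling both strata called 1996 genes that neither called alone, and 142 genes called in a stratum alone were not called in the pool.

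**Figure D2:**
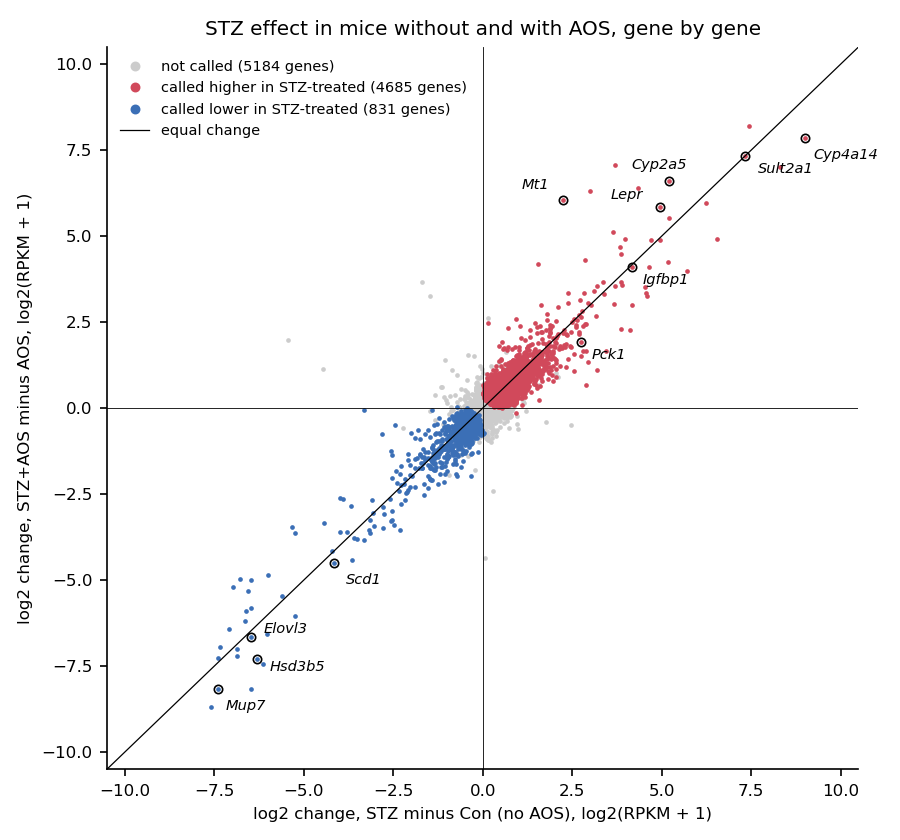
Log2 change with STZ in mice without AOS (horizontal) and with AOS (vertical), both on the log2(RPKM + 1) scale, for all 10700 genes, 1 point per gene, coloured by the call for the pooled effect. Called genes run along the line of equal change, from Mup7 at -7.41 and -8.16 to Cyp4a14 at 9.02 and 7.85, while Mt1 lies off it at 2.24 and 6.06.

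The largest changes belonged to the sex-biased programme, in which genes usually low in male liver rose and male-biased genes fell. Of 27 female-biased genes tested, 24 rose and 1 fell (23 and 1 after median-ratio scaling) with a median change of 3.94. As deposited 88.9% were higher, beside 43.8% of all genes. Higher without overlap between the arms were 23 of the 27, beside 23.2% of all genes. Of 31 male-biased genes tested, 30 fell and none rose under either scaling, with a median change of -5.75. Male-biased genes differed from the Con mean on average by -6.41, -6.499, -6.08 and -5.88 log2 units in STZ 1, STZ 2, STZ+AOS 1 and STZ+AOS 2, and by -1.54 and -3.59 in STZ 3 and STZ+AOS 3. Leaving out these 2 libraries changed the medians of the female-biased and male-biased lists to 4.74 and -7.17.

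Among the rising members, Cyp4a14, a fatty acid omega-hydroxylase that is both female-biased and a PPAR alpha target (chr4:115486200-115496142 in GRCm38, minus strand), was at 0.20, 0.57 and 0.55 RPKM in Con, 8.78, 1.06 and 3.37 in AOS, 885, 1111 and 409 in STZ and 826, 852 and 1535 in STZ+AOS. The pooled change of Cyp4a14 was 8.43 ± 0.36 (adjusted p = 1.32e-07). Sult2a1 and Sult2a2, hydroxysteroid sulfotransferases that sulfate bile acids and steroids, were at 0.56 RPKM or less in every library without STZ. In the treated libraries they spanned wide ranges, 16.1 to 1460 and 8.37 to 329 RPKM. Both were named by a rule that required no overlap between the arms. Cyp17a1, a steroid 17-hydroxylase and lyase, went from a median of 0.815 RPKM to 93.2 (5.37 ± 0.35). Cyp2b9, a female-predominant P450, went from a median of 7.02 to 211 RPKM (4.85 ± 0.51). Lifr, the receptor of leukaemia inhibitory factor, was the female-biased gene that fell, by 0.63, and was not called without Con 3 and AOS 3.

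Among the falling members, Hsd3b5, a male-specific steroid reductase (chr3:98618634-98630252, minus strand), was at 142 to 258 RPKM without STZ, at 0.09 to 0.23 in 5 STZ-treated libraries and at 11.1 in STZ 3 (change -6.80 ± 0.48, adjusted p = 4.05e-06). Elovl3, which elongates very long fatty acids, was likewise highest among the treated libraries in STZ 3, with 72.3 to 239 RPKM without STZ, 0.06 to 0.19 in 5 treated libraries and 12.03 in STZ 3. Mup1 (chr4:60498012-60501960, minus strand) was at 45112 to 68877 RPKM without STZ, at 34.4 to 109 in 4 treated libraries, at 5607 in STZ+AOS 3 and at 32146 in STZ 3. Its change, -7.16, therefore had a large SE of 1.57 (adjusted p = 0.00335). All 20 Mup genes tested, out of 21 in the table, were called lower, 12 of them without overlap, with changes from -8.15 to -0.81 and a median of -6.34. Mup17, with the largest drop, overlapped between the arms, since STZ 3 at 4893 RPKM lay above Con 2 at 4261 and AOS 1 at 2101. Single members of the Mup, Sult2a, Cyp2a and Cyp4a12 families are so alike in sequence that reads may be shared between them, and the family as a whole is firmer than any member.

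**Figure D3:**
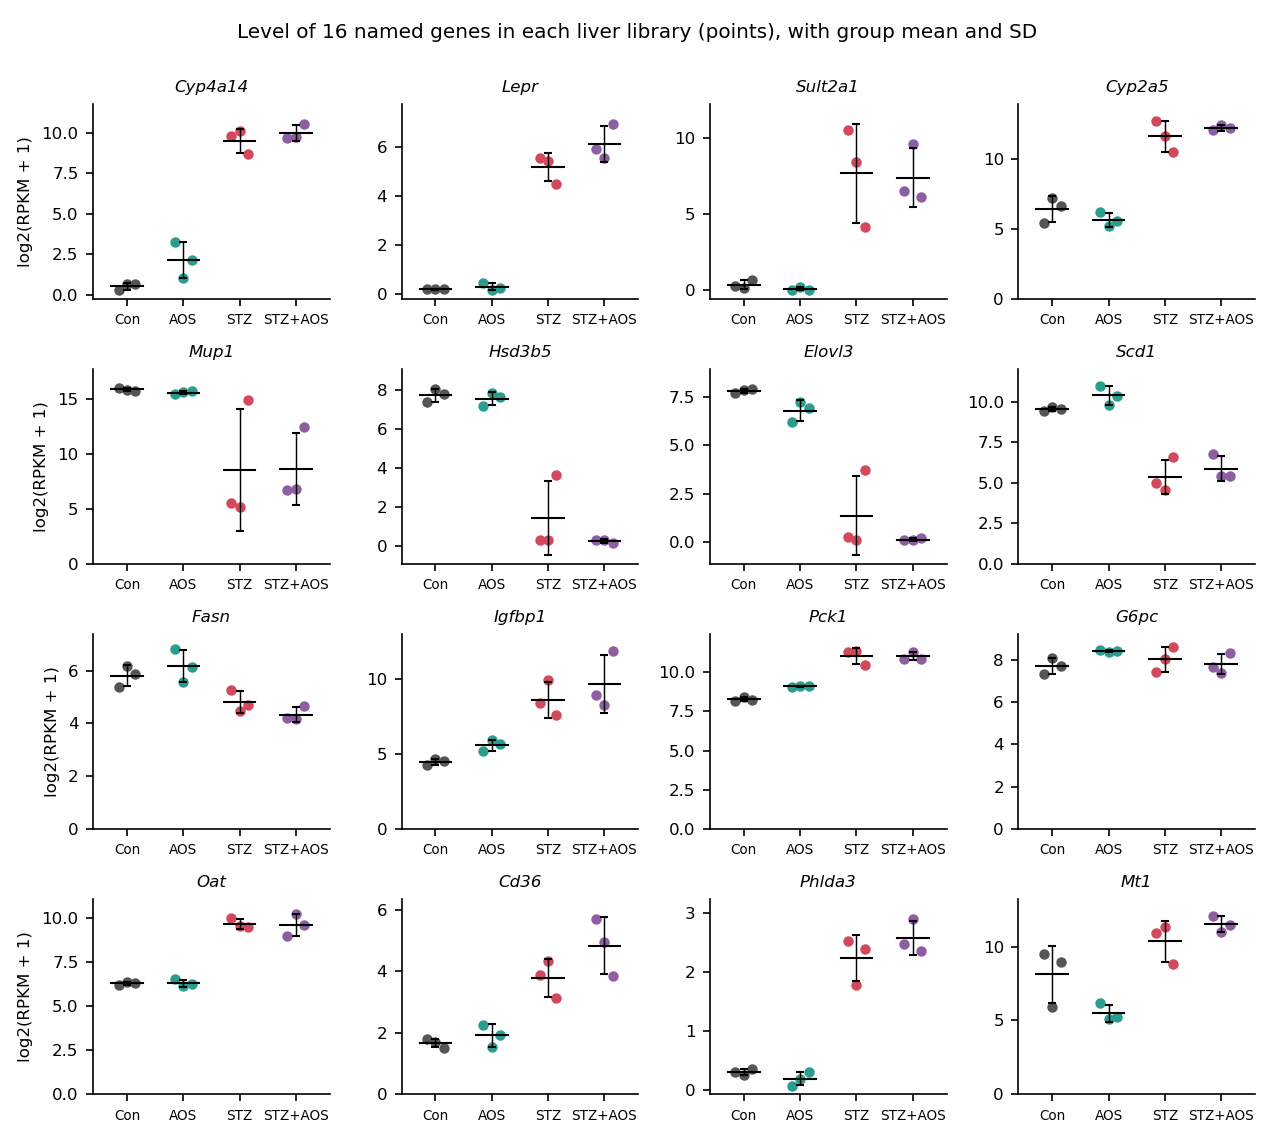
Level of 16 named genes, log2(RPKM + 1) on the vertical axis, in each library (points) of the 4 groups, with the group mean (line) and SD (bar, 3 libraries). Points of STZ and STZ+AOS lie above Con and AOS for Cyp4a14, Lepr, Sult2a1, Cyp2a5, Igfbp1, Pck1, Oat, Cd36 and Phlda3 and below for Mup1, Hsd3b5, Elovl3, Scd1 and Fasn, while G6pc and Mt1 overlap.

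Growth hormone signalling genes themselves moved in either direction. Of 18 tested, 7 rose and 5 fell (5 and 6 after median-ratio scaling), with a median change of 0.23 beside 0.21 over all genes. Lepr, the leptin receptor (chr4:101717404-101815352, plus strand), was at 0.13 to 0.37 RPKM without STZ and at 21.7 to 122 with it (5.40 ± 0.23). It met a naming rule that required no overlap between the arms. Cux2, a transcription factor of female liver, went from at most 0.08 RPKM to 0.75 in STZ 3 and 2.46 to 12.8 in the other treated libraries (2.49 ± 0.42). The growth hormone receptor Ghr fell by 1.20 and Igfals, which stabilises circulating IGF1, fell by 1.39. Igf1 was at 86.9 to 117 RPKM without STZ and 75.9 to 102 with it, not called at -0.19 ± 0.10 but called at -0.45 after median-ratio scaling. Of the STAT5 feedback genes, Socs2 rose by 1.13 ± 0.29 with overlap between the arms, and Cish stood at 0.22 ± 0.22, not called, with its sign turned by median-ratio scaling (-0.0053).

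Genes restrained by insulin rose. In the list of gluconeogenesis and insulin-repressed genes, 15 of 18 rose and none fell (14 and none after median-ratio scaling), with a median change of 1.25. As deposited 83.3% were higher, beside 43.8% of all genes. The list held 14 genes that were higher without overlap, beside 23.2% of all genes. Igfbp1, an insulin-repressed IGF-binding protein (chr11:7197782-7202546, plus strand), was at 18.1 to 24.01 RPKM in Con, 35.2 to 59.6 in AOS, 190 to 976 in STZ and 305 to 3757 in STZ+AOS, with the highest value in STZ+AOS 3. Its change was 4.13 ± 0.56 (adjusted p = 0.000218). Pck1, phosphoenolpyruvate carboxykinase of gluconeogenesis (chr2:173153048-173159273, plus strand), was at 287 to 342 RPKM in Con, 540 to 553 in AOS, 1400 to 2603 in STZ and 1861 to 2526 in STZ+AOS. Pck1 thus rose by 2.76 without AOS and by 1.91 with AOS, a difference that did not pass correction (unadjusted p = 0.0251, adjusted p = 0.9988). Fbp1 and Pcx, other enzymes of the pathway, rose by 1.26 and 0.77, and the insulin receptor substrate Irs2 rose by 1.72 ± 0.32. G6pc, the catalytic subunit of glucose 6-phosphatase and the final step of the pathway, was not called, at 157 to 351 RPKM without STZ and 163 to 383 with it (-0.15 ± 0.22, adjusted p = 0.574). Its point estimates had opposite signs without AOS (0.32) and with AOS (-0.63), and neither the pooled change nor the difference was called. G6pc was called lower without STZ 3 and STZ+AOS 3 (-0.43, limma adjusted p = 0.0474) and after median-ratio scaling without STZ 3 (-0.58, adjusted p = 0.0285). Pdk4, which spares pyruvate, was uncalled at 0.37 ± 0.37, with 15.99 RPKM in STZ+AOS 3 and 1.71 to 5.40 in the other treated libraries.

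Of 27 genes of glucose uptake, glycolysis and glycogen, 18 rose and 4 fell (11 and 6 after median-ratio scaling). With RPKM as deposited that is 66.7% and 14.8%, beside 43.8% and 7.77% of all genes. Pklr, liver pyruvate kinase, fell by 0.84 ± 0.20, with a change of -0.33 without AOS and -1.35 with AOS. The glycogen-targeting subunits of protein phosphatase 1 moved apart, since Ppp1r3g rose by 3.02 ± 0.59 while Ppp1r3b and Ppp1r3c fell by 0.93 and 1.49. Gys2, liver glycogen synthase, and Slc2a2, the glucose transporter GLUT2, rose by 1.24 and 1.05.

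More lipogenic genes fell than rose under both scalings. In the list of lipogenesis and triglyceride synthesis, 16 of 29 fell and 3 rose (18 and 2 after median-ratio scaling), with a median change of -0.58 beside 0.21 over all genes. Scd1, stearoyl-CoA desaturase (chr19:44394455-44407879, minus strand), was at 676 to 2033 RPKM without STZ and at 22.5 to 107 with it, a change of -4.34 ± 0.36 (adjusted p = 1.01e-05). Fasn, fatty acid synthase, was at 40.5 to 112 RPKM without STZ and 16.9 to 37.9 with it (-1.42 ± 0.22), and Acly, which supplies its acetyl-CoA, fell by 0.89. The regulators Srebf1 and Mlxipl (ChREBP) fell by 0.63 and 0.76, and the call of Srebf1 (adjusted p = 0.0327) was lost when any of 8 single libraries was left out (Con 2, Con 3, AOS 1, AOS 3, STZ 2, STZ 3, STZ+AOS 1 or STZ+AOS 2), with adjusted p of 0.0527 to 0.0802. Acaca and Elovl6, an acetyl-CoA carboxylase and an elongase of the same pathway, were not called at -0.14 ± 0.12 and 0.03 ± 0.17, and Acaca was called lower after median-ratio scaling (-0.37). Lpin1, a phosphatidate phosphatase that also acts in fasting, was the largest of the 3 that rose, at 2.92. In cholesterol synthesis and uptake 7 of 24 genes fell and none rose (10 and none after median-ratio scaling), led by Sc5d at -1.37 ± 0.21 and Pmvk at -1.13 ± 0.22. Without Con 3 and AOS 3, 2 of the 24 were called lower, and without STZ 3 and STZ+AOS 3, 7 were lower and 3 higher. The median change of the list was 0.09 without AOS and -0.33 with AOS, and its mean difference from Con ran from 0.64 in STZ 1 to -1.28 in STZ+AOS 1.

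With RPKM as deposited most enzymes of fatty acid oxidation rose, and the omega-hydroxylases Cyp4a14 and Cyp4a10 rose most. More enzymes rose than fell under both scalings. For mitochondrial beta-oxidation and ketogenesis, 22 of 28 rose and 2 fell (14 and 2 after median-ratio scaling, 19 and none without Con 3 and AOS 3), with a median of 0.58. As deposited 78.6% were higher, beside 43.8% of all genes. Cpt1a, which admits long-chain fatty acids to mitochondria, was at 39.9 to 62.3 RPKM without STZ and 81.0 to 163 with it (1.24 ± 0.16), Slc22a5, the carnitine transporter, rose by 1.28 ± 0.09 and Acadm by 0.98 ± 0.16. Peroxisomal and omega-oxidation genes rose in 18 of 30 and fell in 4 (12 and 4 after median-ratio scaling). With RPKM as deposited that is 60% and 13.3%, beside 43.8% and 7.77% of all genes. Cyp4a10 was at 1.29 to 17.2 RPKM without STZ and at 696 to 1305 with it (7.66 ± 0.29, adjusted p = 4.92e-08). The male-specific paralogue Cyp4a12a fell by 6.30, so members of the Cyp4a family moved in opposite directions. The bifunctional peroxisomal enzyme Ehhadh rose by 0.76 ± 0.13, by 1.16 without AOS and by 0.36 with AOS, where it was not called alone. In limma the interaction of Ehhadh had an unadjusted p of 0.00968 and an adjusted p of 0.9988. Of 26 other PPAR alpha targets, 17 rose and 4 fell (15 and 5 after median-ratio scaling), which is 65.4% and 15.4% as deposited. Cd36, a fatty acid transporter, rose from 1.85 to 3.79 RPKM to 7.68 to 51.0 RPKM (2.52 ± 0.29), Fabp1, the liver fatty acid-binding protein, fell by 1.92, and Plin2, a lipid droplet coat protein, was uncalled at -0.04 ± 0.18. Fgf21, a hormone of fasting, fell by 0.54 ± 0.11 in the pool, but its means were 0.92 RPKM in Con, 2.43 in AOS, 0.663 in STZ and 0.89 in STZ+AOS, and the libraries without AOS alone gave -0.22, not called.

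PPAR alpha binds as a heterodimer to a repeat of the hexamer AGGTCA with 1 base between the copies, and the RefSeq promoters (GRCm38.p6, 250 bases before to 50 after each gene's start) were searched for it on both strands, allowing 2 mismatches over the 12 fixed bases. It was found in at least 1 promoter of 1190 of 27025 genes (4.4%), of 2 of the 21 peroxisomal and omega-oxidation genes that had a promoter (9.52%) and of 4 of the 24 other targets (16.7%). Of the 22 mitochondrial beta-oxidation and ketogenesis genes with a promoter, 3 held it (13.6%), and their sequences are not shown. The 61 bases around the match are shown for the 5 tested genes of the first 2 lists whose match lay wholly before the start. They are written in the direction of the gene, with the match in capitals.
Acot12: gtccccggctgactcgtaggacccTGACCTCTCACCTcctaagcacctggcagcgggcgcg
Acot4: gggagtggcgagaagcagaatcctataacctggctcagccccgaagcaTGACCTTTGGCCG
Cd36: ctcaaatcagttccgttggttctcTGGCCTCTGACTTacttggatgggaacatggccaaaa
Fabp1: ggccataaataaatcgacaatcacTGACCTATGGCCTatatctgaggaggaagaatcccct
Plin2: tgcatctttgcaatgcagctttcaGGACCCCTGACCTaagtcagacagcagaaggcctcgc
The windows lie at chr13:91741387-91741447 (plus strand), chr12:84038318-84038378 (plus), chr5:17835923-17835983 (minus), chr6:71199788-71199848 (plus) and chr4:86670248-86670308 (minus). All 5 matches lie on the opposite strand to the gene and none is exact, with 1 mismatch in Acot12 and Fabp1 and 2 in Acot4, Cd36 and Plin2. Acot12, Acot4 and Cd36 rose by 1.08, 1.69 and 2.52, Fabp1 fell by 1.92 and Plin2 was not called, so that these 5 genes did not share a direction. A match describes the letters of this window and is not a site of binding.

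Single transporters and P450 enzymes of bile acid and drug metabolism changed. In bile acid synthesis and transport, 14 of 26 rose and 4 fell (12 and 6 after median-ratio scaling), which is 53.8% and 15.4% beside 43.8% and 7.77% of all genes. The basolateral uptake transporters Slco1a4 and Slco1a1 moved oppositely, the former from 2.78 to 15.6 RPKM up to 66.5 to 154 (3.59 ± 0.27) and the latter, a male-biased gene, from 125 to 203 RPKM down to 0.85 to 21.2 in 4 treated libraries, 64.7 in STZ+AOS 3 and 117 in STZ 3 (-3.70 ± 0.96). The efflux pumps Abcc4 and Abcc3 rose by 2.03 and 1.53. Cyp7a1 and Cyp8b1, the rate-limiting and 12-hydroxylating enzymes of bile acid synthesis, were not called at 0.41 ± 0.63 and -0.55 ± 0.62, and in STZ+AOS 1 they stood at 1.91 and 13.8 RPKM against 25.1 to 75.4 and 120 to 310 in the other treated libraries. Without STZ+AOS 1, Cyp7a1 was called higher (1.09, limma adjusted p = 0.0129). Of 40 drug-metabolism genes, 25 rose and 3 fell (21 and 8 after median-ratio scaling). With RPKM as deposited that is 62.5% and 7.5%, beside the same shares of all genes. Cyp2a5, a coumarin hydroxylase, was at 36.4 to 153 RPKM without STZ and 1466 to 6981 with it (5.90 ± 0.38), and Cyp2c37 went from 10.3 to 36.6 up to 214 to 1694 (4.71 ± 0.44). Cyp3a11, the main hepatic Cyp3a enzyme, rose by 1.11 ± 0.24, and Por, the electron donor of these enzymes, by 3.26.

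Amino acid breakdown and urea synthesis genes rose together, and the taurine-making enzyme Csad fell. In the list of the urea cycle and amino acid catabolism, 34 of 45 rose and 1 fell (25 and 2 after median-ratio scaling), with a median of 0.83. As deposited 75.6% were higher, beside 43.8% of all genes. The list held 24 genes that were higher without overlap, beside 23.2% of all genes. Oat, ornithine aminotransferase (chr7:132557478-132576398, minus strand), was at 68.8 to 91.6 RPKM without STZ and 520 to 1216 with it (3.35 ± 0.18, adjusted p = 9.49e-07). Got1, the cytosolic aspartate aminotransferase, rose by 2.70 ± 0.13 and Cps1, which starts the urea cycle, from 298 to 517 RPKM to 855 to 1060 RPKM (1.23 ± 0.12). Within the cycle Asl, Arg1 and Ass1 rose by 1.97, 1.14 and 1.02, while Otc was uncalled at 0.06. Tat, tyrosine aminotransferase, was at 334 to 581 RPKM without STZ and 863 to 1498 in 5 treated libraries, with 4124 in STZ+AOS 3 (1.53 ± 0.31). Of 18 amino acid transporters 11 rose and 3 fell (7 and 3 after median-ratio scaling, 9 and 1 without Con 3 and AOS 3). With RPKM as deposited that is 61.1% and 16.7%, beside 43.8% and 7.77% of all genes. The cationic carrier Slc7a2 rose most among them, by 2.66 ± 0.15. In the taurine and sulfur amino acid list 9 of 17 rose and 2 fell (6 and 3 after median-ratio scaling), which is 52.9% and 11.8% beside 43.8% and 7.77% of all genes. Mat1a, the liver's S-adenosylmethionine synthase, rose from 395 to 700 RPKM to 1859 to 4712 (2.59 ± 0.20), and Csad, cysteine sulfinate decarboxylase, fell from 129 to 173 RPKM to 5.26 to 14.8 in 5 treated libraries and 56.0 in STZ+AOS 3 (-3.40 ± 0.45).

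**Figure D4:**
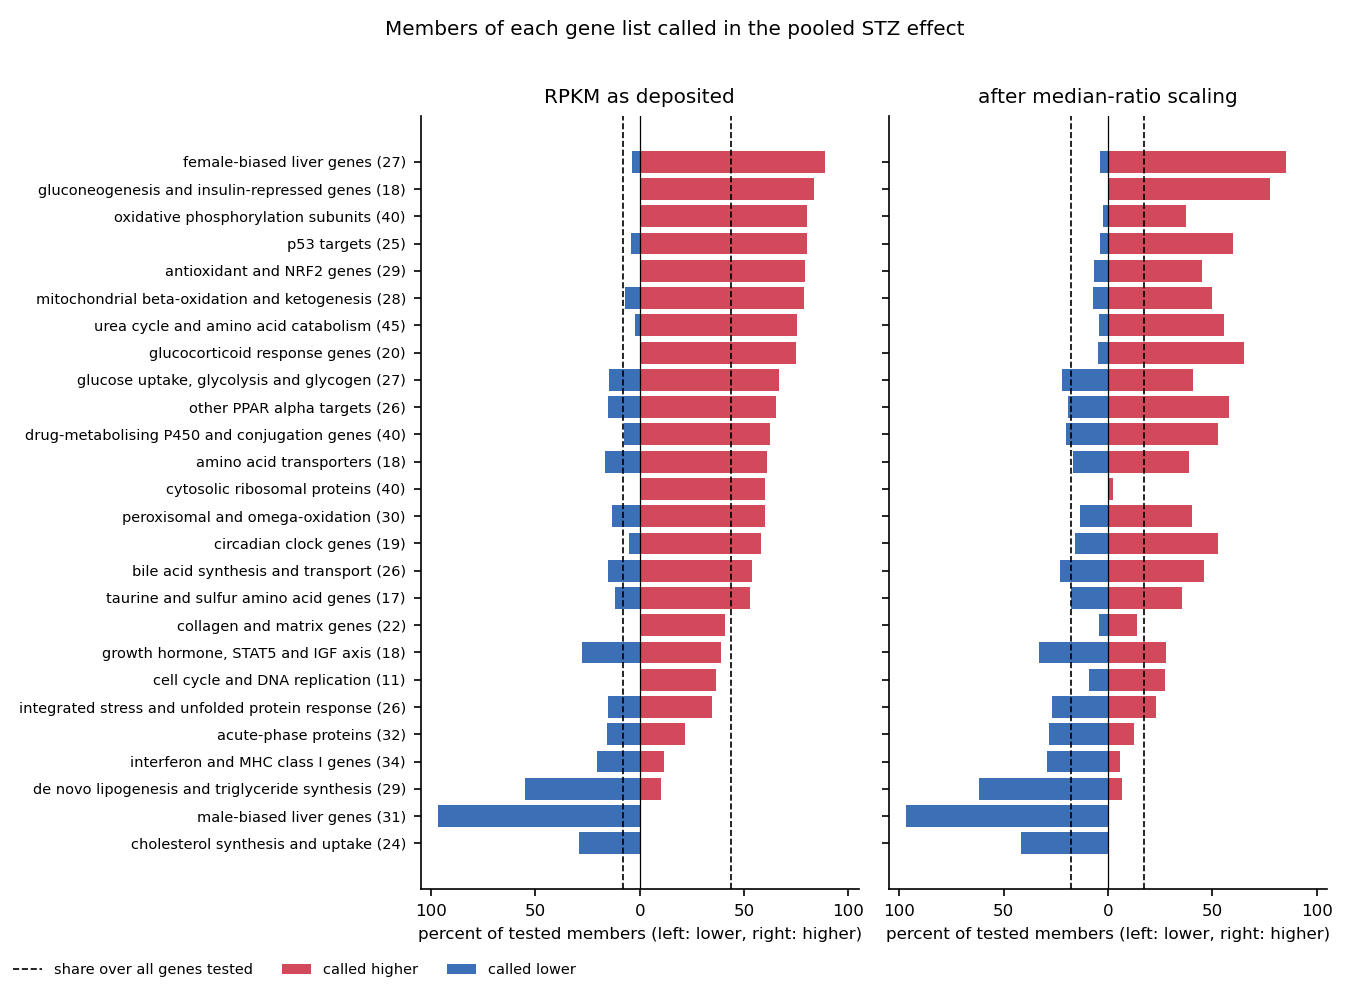
Percent of the tested members of each of 26 gene lists (number of members in brackets) called higher (red, right) or lower (blue, left) for the pooled STZ effect, with RPKM as deposited and after median-ratio scaling. Dashed lines mark the shares over all genes tested, 43.8% higher and 7.77% lower at left and 17.4% and 17.6% at right. Male-biased genes reach 96.8% lower, and the ribosomal list goes from 24 of 40 members higher to 1.

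Targets of p53 and of the glucocorticoid receptor rose in most members. Of 25 p53 targets, 20 rose (80%, beside 43.8% of all genes) and 1 fell (15 and 1 after median-ratio scaling). The list held 17 genes that were higher without overlap, beside 23.2% of all genes, and its median change was 1.01. Phlda3, an AKT-restraining p53 target, was at 0.05 to 0.28 RPKM without STZ and 2.44 to 6.46 with it (2.16 ± 0.13, adjusted p = 2.18e-06), and Btg2 was at 1.46 to 2.07 and 7.01 to 29.7 RPKM. The feedback ligase Mdm2 and the cyclin G1 gene Ccng1 rose by 1.01 and 1.23, while Cdkn1a (p21) ranged from 9.12 to 92.5 RPKM in the treated libraries and was not called (1.14 ± 0.45, adjusted p = 0.0531), but limma called it with the replicate number as a block (adjusted p = 0.0386), with all 18 libraries (0.0229), with a filter of 1 RPKM in all 12 (0.0475) and without STZ 1 (1.39) or STZ+AOS 2 (1.51). Without STZ 3 and STZ+AOS 3 the change of Cdkn1a was 0.51, not called. Ddit4 rose by 1.96 ± 0.62, with 103 RPKM in STZ+AOS 3 and 5.18 to 33.6 in the other treated libraries, and was not called without STZ 2 (1.61, limma adjusted p = 0.0531). Of 20 glucocorticoid response genes, 15 rose (75%, beside 43.8% of all genes) and none fell (13 and 1 after median-ratio scaling). Their median change was 1.13. Among these, Fkbp5, a chaperone of the receptor, was at 3.85 to 6.46 RPKM without STZ and 9.97 to 49.9 with it (1.88 ± 0.28), and Per1 rose by 2.51 ± 0.31. The metallothioneins Mt1 and Mt2 stood at 58.2 to 736 and 23.4 to 312 RPKM within Con, at 32.5 to 70.2 and 11.7 to 43.8 in AOS, and at 441 to 4384 and 350 to 2114 in the treated libraries, which gave changes of 4.15 ± 0.61 and 4.65 ± 0.61. In the 6 libraries without AOS alone neither was called (limma adjusted p = 0.138 and 0.0626). Of 19 circadian clock genes 11 rose and 1 fell (10 and 3 after median-ratio scaling). With RPKM as deposited that is 57.9% and 5.26%, beside 43.8% and 7.77% of all genes. The output factor Dbp was at 0.36 to 3.41 RPKM without STZ and 6.75 to 88.0 with it (3.77 ± 0.55), Nr1d1 and Nr1d2 rose by 2.15 and 2.23, Npas2 fell by 1.59 and Arntl was not called at -0.75 but was at -0.98 after median-ratio scaling. The hour of liver collection in each group is not given in the sources used here, and its part in these genes was not tested.

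Antioxidant genes rose in 23 of 29 members and fell in none (13 and 2 after median-ratio scaling). As deposited 79.3% were higher, beside 43.8% of all genes. Gsta2, a glutathione transferase, was at 16.2 to 45.3 RPKM without STZ and 176 to 264 with it (2.65 ± 0.20). Nqo1, a quinone reductase, was at 0.94 to 2.59 and 7.37 to 18.01 RPKM (2.23 ± 0.16). Genes of the integrated stress and unfolded protein responses split, with 9 of 26 higher and 4 lower (6 and 7 after median-ratio scaling). Trib3, an insulin and stress responsive pseudokinase, rose by 2.496 ± 0.227, whereas the chaperone genes Sdf2l1, Creld2 and Calr fell by 2.11, 0.98 and 0.68. Acute-phase proteins rose in 7 of 32 and fell in 5 (4 and 9 after median-ratio scaling, 4 and 2 without Con 3 and AOS 3). Saa1 was at 61.1 to 6422 RPKM without STZ and 28.04 to 3430 with it and was not called. Its change was -4.47 without AOS, where Con alone ran from 296 to 6422 RPKM, and 1.13 with AOS. In the latter stratum Saa1 was at 3430 RPKM in STZ+AOS 1 and at 200 and 33.6 in STZ+AOS 2 and STZ+AOS 3. In limma its interaction had an unadjusted p of 0.0321 and an adjusted p of 0.9988. The median change of the acute-phase list, which also held Mt2, was -0.49 without AOS and 0.66 with AOS. Its mean relative to Con was 1.23 in STZ+AOS 1, -0.38 in STZ+AOS 2 and -0.66 in STZ+AOS 3. In AOS that mean was -1.30 to -0.64, and within Con it was -0.92 to 0.64. An unadjusted interaction p under 0.05 was found in 7 of the 32 genes, beside 4.09% of all genes. Interferon and MHC class I genes rose in 4 of 34 and fell in 7 (2 and 10 after median-ratio scaling, 2 and 4 without Con 3 and AOS 3), with Usp18, an interferon feedback protease, at 1.69 ± 0.24 and the immunoproteasome subunit Psmb9 at -0.82 ± 0.15. Of 11 cell cycle genes tested of 30, 4 rose and none fell (3 and 1 after median-ratio scaling), with Ccnd1 at 1.98 ± 0.28 and Pcna at 0.68 ± 0.11. With RPKM as deposited, 43.8% of all genes were higher and 7.77% lower. The higher shares of the cell cycle, stress, acute-phase and interferon lists, 36.4%, 34.6%, 21.9% and 11.8%, were all below that. Their lower shares were 0%, 15.4%, 15.6% and 20.6%.

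Subunits of oxidative phosphorylation and ribosomal proteins were called higher in fewer members after median-ratio scaling. Of 40 oxidative phosphorylation subunits 32 were called higher and none lower, with a median of 0.51, and after median-ratio scaling 15 were higher and 1 lower. Atp5b, a subunit of ATP synthase, was at 486 to 635 RPKM without STZ and 979 to 1355 with it, and its change was 1.01 ± 0.12 (0.75 after median-ratio scaling). Of 40 cytosolic ribosomal protein genes 24 were called higher and none lower, with a median of 0.36, but 1, Rplp0, was called after median-ratio scaling. Without Con 3 and AOS 3 the ribosomal count was 7, and without STZ 3 and STZ+AOS 3 it was 39. Of all 10700 genes, 3166 and 5309 were called higher in these settings, beside 4685 with all libraries. Collagen and matrix genes were higher in 9 of 22 and lower in none (3 and 1 after median-ratio scaling, 5 and none without Con 3 and AOS 3), and 40.9% is below the 43.8% of all genes called higher. The largest change among them was that of the metalloproteinase Mmp14, 0.89 ± 0.18.

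**Figure D5:**
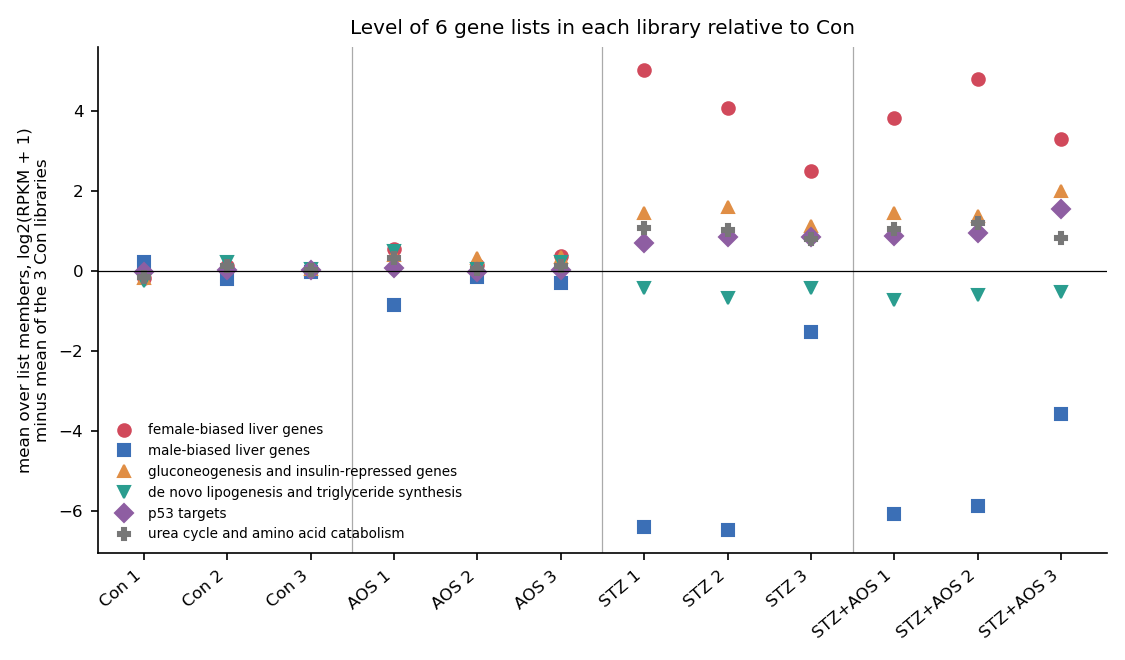
Mean over the tested members of 6 gene lists in each library, log2(RPKM + 1) minus the mean of the 3 Con libraries (vertical axis), 1 symbol per list. Male-biased genes lie between -6.50 and -5.88 in 4 STZ-treated libraries and at -1.54 in STZ 3 and -3.59 in STZ+AOS 3, while gluconeogenesis, p53 and amino acid lists lie between 0.71 and 2.01 in all 6.

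Few markers of other liver cells were called after median-ratio scaling. In bulk liver a change in such markers can mean more cells of a type or more RNA per cell, and these cannot be told apart. Kupffer cell and macrophage markers were higher in 7 of 12 with RPKM as deposited and in 1 after median-ratio scaling, in 2 without Con 3 and AOS 3 and in all 12 without STZ 3 and STZ+AOS 3. Of all 10700 genes, 4685, 1867, 3166 and 5309 were called higher in these 4 settings. The marker called after scaling was Marco, a scavenger receptor, which rose from 1.81 to 3.46 RPKM to 9.67 to 67.4 (2.60). The summed RPKM of the Kupffer list was 147 to 243 without STZ and 214 to 447 with it. Endothelial markers were higher in 6 of 11 (3 after median-ratio scaling, 4 without Con 3 and AOS 3) and stellate markers in 3 of 10 (1 and 2), beside 43.8% of all genes (17.4% after scaling). Of the bile duct markers Tm4sf4 alone was called, at 22.6 to 41.8 RPKM without STZ and 65.6 to 150 with it, whereas Krt19 and Sox9, which define the type, changed by 0.04 and -0.43 and were not called (Sox9 was called lower after median-ratio scaling, at -0.59). Summed markers of B cells, T and NK cells and neutrophils reached at most 3.43, 8.83 and 21.5 RPKM in any library, and none of their 4 tested genes was called. Among erythroid genes Alas2, the red cell form of the first enzyme of heme synthesis, fell from 90.3 to 121 RPKM to 2.93 to 43.4, while the globin Hba-a1 overlapped between the arms (277 to 1626 RPKM with STZ, 894 to 2494 without). Car3, from the adipocyte list, fell from 2046 to 4071 RPKM to 4.14 to 907 RPKM, and the defining adipocyte genes Adipoq, Plin1 and Lep were at or below 0.12 RPKM in every library. Cela1, from the exocrine pancreas list, fell from 30.6 to 48.8 RPKM to 2.96 to 8.73. These single genes outside the naming rule were picked after their values were seen.

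Whether the STZ effect differed between mice without and with AOS was asked of every gene through the interaction, (STZ+AOS minus AOS) minus (STZ minus Con). In limma no gene of 10700 passed an adjusted p of 0.05 (0%), the smallest adjusted p was 0.9988, and 438 genes (4.09%) had an unadjusted p under 0.05. The median SE of the interaction was 0.21, against 0.10 for the pooled effect, so a difference as large as the median STZ change was about the size of its SE and not detectable. Leaving out STZ 3 and STZ+AOS 3 gave 2 calls, Bglap3 and Csad, and leaving out STZ 3, STZ+AOS 1 or STZ+AOS 3 alone gave 1 call each. The 6 genes with the smallest unadjusted p, none of them called, were Ces4a, Arhgef16, H2-T24, Scara5, Bak1 and Psmc3ip. Ces4a, a carboxylesterase, was at 2.09 to 3.23 RPKM in Con, 0.38 to 1.13 in AOS, at most 0.25 in STZ and at most 0.11 in STZ+AOS, so that its STZ effect was -1.80 without AOS and -0.63 with AOS. The interaction of Ces4a had an unadjusted p of 0.000448 and an adjusted p of 0.9988 in limma. Scara5, a ferritin receptor, was at 4.08 to 12.03 RPKM in Con and 1.94 to 2.83 in AOS, at most 0.47 in STZ and 0.22 to 1.94 in STZ+AOS, with STZ effects of -2.82 and -0.76. Mt1 and Mt2 had larger STZ effects with AOS, 6.06 and 6.30, than without, 2.24 and 2.998 (limma, unadjusted p = 0.0096 and 0.0202, neither passing correction), beside a wide spread of both genes within Con. The absolute STZ change was smaller with AOS in 25 of 28 genes of mitochondrial oxidation, 24 of 30 of peroxisomal and omega-oxidation, 34 of 40 of oxidative phosphorylation, 30 of 45 of amino acid catabolism and all 12 Kupffer cell markers, beside 49.4% of all genes tested. It was smaller in 7 of 25 p53 targets and 8 of 29 lipogenic genes, and no difference between lists was tested. These counts use RPKM as deposited only and depend on the level of Con and AOS as well. The mean of the mitochondrial list, relative to Con, was -0.22 to 0.20 in Con and 0.24 to 0.30 in AOS. It was 0.67 to 0.89 in STZ and 0.48 to 0.96 in STZ+AOS, which overlapped.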

How the data were processed

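Liver RNA was sequenced in 18 libraries, 12 of which are used here. The authors deposited 1 table of RPKM per gene (reads scaled to gene length and library size) at 2 decimals, without counts. The study's methods name SOAPaligner and the submitters' processing notes name Bowtie 0.12.2 and mm10, so the aligner is not settled. Groups came from the treatment labels. RPKM were taken as log2(RPKM + 1) for genes at 1 RPKM or more in 3 of the 12 libraries and fitted in limma 3.58.1 (R 4.3.3) with 4 group means, an intensity trend and Benjamini-Hochberg adjustment over all 10700 genes (two-sided). Fold changes on this scale understate low genes. Single per-library sums were compared by an exact permutation test within AOS strata. Because DEGseq, used by the study, needs reads, it was not run. Same-numbered libraries of different groups correlated in their deviations from the group means at -0.19 to 0.34, over 0.1 in 6 of 18 pairs, so the number was not taken as a pairing. Tested on simulated data of 10700 genes, the pooled effect recovered 96 of 100 genes changed by 1 and 99 of 100 changed by 2 on the log2 scale with 22 false calls, and the interaction 186 of 200 changed by 2 with 11 false calls. In that data set 10300 genes held no pooled change, whereas 5516 genes were called in the libraries. Recovery and false calls with so many changed genes were not tested. Gene positions are from GENCODE M21 (GRCm38). Named genes were the 8 rising and 8 falling genes with the largest change in the weaker stratum, called without overlap, the 2 leading called members of each list, a set of key genes, and the 6 genes with the smallest interaction p. The members, lists and key genes were chosen with earlier results of these data known. Depth per library is not given, and intervals cover the spread between libraries only. A few genes that these rules select are not reported here.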

Additional observations from a re-analysis of the deposited data

Results flagged for a closer look

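In 13 of 174 sets of 6 libraries, for the named genes, the most extreme library lay further from the others than Dixon's 95% limit allows (7.47%, where chance alone flags about 5%). STZ 3 was the library in 5 of them, with Cyp4a10 at 696 RPKM, Mt1 at 441 and Mt2 at 350 below the other STZ-treated libraries, and Elovl3 at 12.03 and Hsd3b5 at 11.1 above them. STZ+AOS 1 was low for Sc5d (31.8 RPKM), Cyp7a1 (1.91) and Cyp8b1 (13.8), and STZ+AOS 3 was high for Irs2 (35.5) and Tat (4124). Among the libraries without STZ, AOS 1 was high for Lepr (0.37) and low for Socs2 (5.64), and AOS 2 was low for Ciart (0.07).

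The libraries of a stratum all moved one way and those of the other stratum the opposite way, each relative to the mean of its own control group, in 3 named genes, with interaction values of -0.64 for Elovl6, 1.16 for Arhgef16 and 0.82 for Psmc3ip on the log2 scale. None passed correction (limma adjusted p = 0.9988 for each).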

How the results depend on the processing

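The pooled effect had 3696 to 6277 calls over the alternatives that used both strata, and scaling moved its balance. Higher and lower calls were 1937 and 1912 after quantile normalisation, 1867 and 1881 after median-ratio scaling (2101 and 2156 without STZ 3), 1642 and 2221 after median centring and 2670 and 1261 with equal sums outside the Mup genes. Fitted alone, the stratum without AOS gave 2683 calls (2316 higher, 367 lower, 17 past the stricter limits) and the stratum with AOS 2506 (2022, 484 and 62), with fewer libraries each. Without Con 3 and AOS 3, 530 genes were lower and 107 passed the stricter limits. Leaving out each library in turn gave 4644 to 5900 calls, 3925 to 4976 higher, 673 to 924 lower, 316 to 632 past the stricter limits, and 0 to 1 interactions. The interaction had 1 call after median-ratio scaling without STZ 3 and 2 without STZ 3 and STZ+AOS 3. A replicate block, for numbers that did not pair the libraries, gave 5238 calls and 413 past the stricter limits. A pseudocount of 0.1 gave 611 of the latter. Of the 74 named genes called, 71 kept their call under every alternative that used all 12 libraries. Of the 74, H2-T24 alone turned its sign, and the other signs that turned belonged to genes not called. In the stratum without AOS, G6pc stood at 0.32, Acaca at 0.155 and Psmc3ip at -0.41, and in the stratum with AOS, Elovl6 at -0.29, Cish at -0.021, Arhgef16 at 0.38, H2-T24 at -0.14 and Bak1 at 0.18. After quantile normalisation, median-ratio scaling, median centring and median-ratio scaling without STZ 3, Elovl6 stood at -0.22, -0.20, -0.22 and -0.26, Cish at -0.018, -0.0053, -0.033 and -0.0500, and Psmc3ip at -0.21, -0.21, -0.24 and -0.25. With equal sums outside the Mup genes Elovl6 and Psmc3ip stood at -0.11 and -0.12. Without Con 3 and AOS 3, Psmc3ip stood at -0.069, and without STZ 3 and STZ+AOS 3, Plin2 at 0.029. Over single libraries left out, Elovl6 ranged from -0.0996 to 0.17, Psmc3ip from -0.044 to 0.0684, Pdk4 from -0.017 to 0.65, Plin2 from -0.17 to 0.11, Cyp7a1 from -0.032 to 1.09 and Cyp8b1 from -0.93 to 0.17. The causes were not tested. Depth is not given, and the number of libraries limits the precision.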
